A study of Mus musculus with 44 samples.

Results

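The comparison described here is between hippocampi of mice on methionine restriction at 18 months of age and at 5 months of age. Its members are 14 of the 44 libraries of the study, 1 library per mouse, of which 7 are labelled 18M-MR and 7 are labelled 5M-MR. Each is a library of hippocampal total RNA from a mouse of the inbred strain C57BL/6J, and the labels do not give sex or when the diet began. MR is read from the series title as methionine restriction, and CD as its control diet. The 14 control-diet libraries of the same ages, 8 of 18M-CD and 6 of 5M-CD, and the 8 of 15M-MR serve only to place the results. Of 13218 assembled loci in the table, 10031 carry a gene symbol, and 9561 of these had at least 1 FPKM (fragments per kilobase of transcript, scaled to the mapped fragments of a library) in at least 6 of the 14 libraries and were tested. The title ties the diet to age-related cognitive decline and to fibroblast growth factor 21 (FGF21), so the question here is how the hippocampal transcriptome differs with age in mice that all eat the restricted diet.

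The hippocampus forms new memories through circuits of dentate granule cells and CA3, CA2 and CA1 pyramidal cells, supported by astrocytes, oligodendrocytes and microglia. Excitation of its neurons switches on immediate early genes within minutes, and these transcription factors and synaptic proteins link activity to lasting change. Methionine is an essential amino acid that donates methyl groups through the methionine cycle, and its restriction is known to raise FGF21 from the liver and to lengthen life in rodents. With age the brain is known to gain microglial and astrocytic transcripts.

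The 14 libraries did not differ only in age. The share of FPKM in loci without a gene symbol was 7.43 ± 2.84% in 18M-MR and 4.20 ± 0.617% in 5M-MR (SD, n = 7 each; exact permutation test, 2-sided, p = 0.00699, 0.0124 adjusted over 4 measures), and it was above 8% in 18M-MR 1, 2 and 7. Loci listed at 0 numbered 727 ± 141 in 18M-MR and 516 ± 35 in 5M-MR (adjusted exact p = 0.00466). Loci holding mitochondrial ribosomal RNA, which also hold mitochondrial messages, took 7.81 ± 2.98% of FPKM in 18M-MR and 4.11 ± 0.779% in 5M-MR (adjusted exact p = 0.0124). Ttr, the transthyretin of the neighbouring choroid plexus, ran from 16 to 2619 FPKM in 18M-MR and from 7.72 to 3036 FPKM in 5M-MR, with no difference past the test (adjusted exact p = 0.418). By the lane number in the library descriptions, 6 libraries of 18M-MR were on lane 3 and 18M-MR 2 on lane 1, while 5 of 5M-MR were on lane 2 and 5M-MR 2 and 4 on lane 1, so age and lane cannot be told apart in most of these libraries. Because of the share without a symbol, and not of lane, the comparison was repeated without 18M-MR 1, 2 and 7. That repeat left 18M-MR on lane 3 alone and 5M-MR on lanes 1 and 2, so age and lane cannot be told apart in it at all. Of the 78 genes selected for description that passed the test, only Nr4a1, Egr1, Iffo2 and Me2 also passed in that repeat. The part of these measures in the results was not tested.

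In limma, 59 loci were higher and 457 lower in 18M-MR than in 5M-MR at a Benjamini-Hochberg adjusted p under 0.05, which is 0.617% and 4.78% of the loci tested. All 9561 loci had a median difference of -0.23 on the log2(FPKM + 1) scale, so single differences are to be read against that shift. After each library was scaled to the same median, the shift was -0.01 and the calls split into 74 higher and 76 lower, and 116 loci were called both ways (40 higher and 76 lower). Quantile normalization gave 242 higher and 269 lower. Groups that did not overlap at all, with every 18M-MR library beyond every 5M-MR library, were found at 12 loci in the higher direction (0.126%) and 156 in the lower (1.63%). The plot of the difference against level shows the called loci spread over the whole range of FPKM, with most of them below the line.

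**Figure D1:**
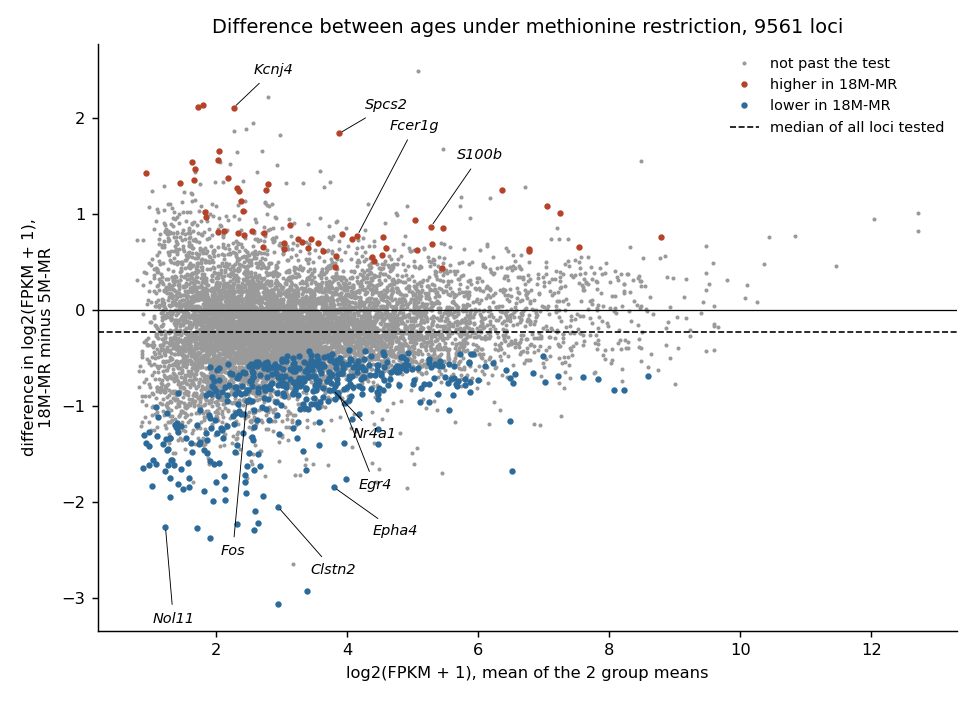
Difference in log2(FPKM + 1) between 18M-MR and 5M-MR (vertical axis) against the mean level (horizontal axis, log2 scale) for 9561 loci. The 59 loci higher in 18M-MR are red, the 457 lower are blue, loci that did not pass the test are grey, and the dashed line is the median of all loci, at -0.23.

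The number of calls rested strongly on which libraries were used. Without 18M-MR 1, 2 and 7, limma called 0 higher and 9 lower loci (0.0941% for the lower), against 1578 loci in either direction at an unadjusted p under 0.05, and no other tool was run. The median difference of the 59 higher loci was 0.81 with all libraries and 0.72 without those 3, and that of the 457 lower loci was -0.77 and -0.59. Leaving out 1 library at a time gave from 19 calls (without 5M-MR 6) to 1766 (without 18M-MR 4). The count was 81, 144, 1766, 1160, 64, 309 and 599 without 18M-MR 1, 2, 4, 5, 6, 7 and 8 in turn, and 55, 195, 63, 19, 317, 93 and 54 without 5M-MR 2, 4, 5, 6, 7, 8 and 10. Calls that passed in all 14 of these fits numbered 18, of which 2 were higher and 16 lower, and all 18 also passed after median scaling. Those on a single gene at a single locus were S100b and Spcs2, higher, and Nr4a1, Egr4, Iffo2, Me2, Dirc2, Dpf2, Zfp318, Nol11, Ppp4r4, Ssx2ip and the clone-named 2900026A02Rik, lower. Iffo2 and Nol11 met the filter only through 5M-MR, as no 18M-MR library reached 1 FPKM there. Of the 78 genes selected for description that passed the test, 12 passed in every such fit, and the fits of single libraries kept between 13 (without 5M-MR 6) and 78.

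**Figure D2:**
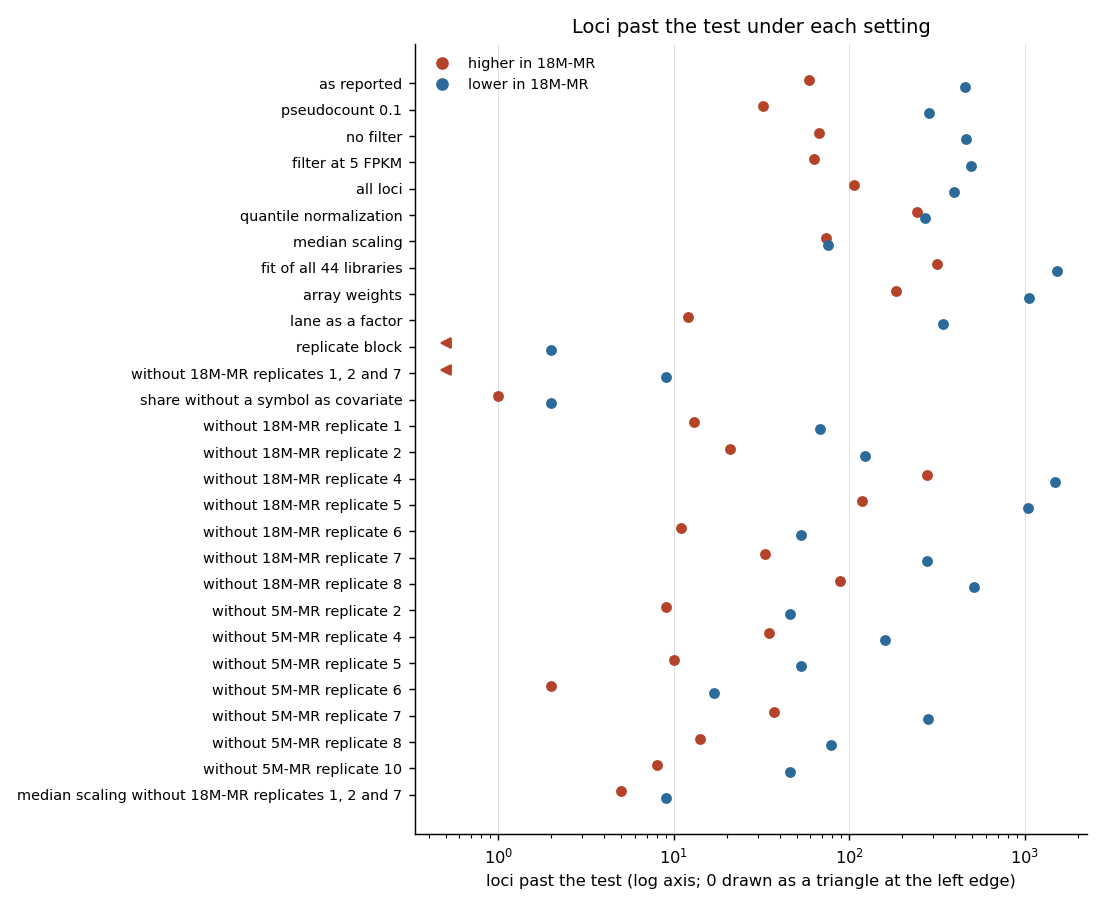
Number of loci past the test (horizontal log axis) that were higher (red) or lower (blue) in 18M-MR under each setting (vertical axis). The 59 higher and 457 lower loci of the top line fell to 0 and 9 without 18M-MR 1, 2 and 7, and to 2 and 17 without 5M-MR 6.

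Immediate early genes were lower in the 18-month mice. Of 28 such genes listed, 21 were tested on a locus of their own, 6 fell (28.6% of those tested, beside 4.78% of all loci), none rose, and 20 of 21 differences were below 0. Nr4a1, a nuclear receptor induced by calcium and cAMP, fell, as did Egr4, Egr1, Fos and Junb, transcription factors of the EGR and AP-1 families, and Arc, which removes AMPA receptors from synapses. The median difference of the 21 genes was -0.52, against -0.23 over all loci. It was -0.36 without 18M-MR 1, 2 and 7 (all loci -0.12) and -0.30 after median scaling (all loci -0.01). With that scaling Nr4a1 and Egr4 passed (limma adjusted p = 0.047 and 0.0437). Egr1, Fos, Junb and Arc did not (adjusted p = 0.0946, 0.0535, 0.0834 and 0.12).

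The promoters of the genes that fell are shown because transcription factors of the CREB family bind the letters TGACG, the core of the cAMP response element, in activity-induced genes. RefSeq promoter windows on GRCm38.p6 were at hand for 4 of the 6, and the 250 bases before the start of each are printed 5′ to 3′ on the strand of the gene, with TGACG and its reverse complement CGTCA in capitals. Egr1 and Arc are named only.
Nr4a1, chr15:101266596-101266845, plus strand: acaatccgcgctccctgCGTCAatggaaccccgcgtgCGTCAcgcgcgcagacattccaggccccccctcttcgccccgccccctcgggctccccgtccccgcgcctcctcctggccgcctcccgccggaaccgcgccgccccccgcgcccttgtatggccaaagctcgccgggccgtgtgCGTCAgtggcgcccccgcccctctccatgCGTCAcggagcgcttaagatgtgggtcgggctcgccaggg
Egr4, chr6:85513590-85513839, minus strand: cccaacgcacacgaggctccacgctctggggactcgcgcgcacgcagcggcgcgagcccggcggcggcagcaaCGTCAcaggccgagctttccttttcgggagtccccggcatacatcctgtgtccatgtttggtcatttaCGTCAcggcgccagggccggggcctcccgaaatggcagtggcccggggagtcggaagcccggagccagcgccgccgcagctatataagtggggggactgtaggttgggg
Fos, chr12:85473640-85473889, plus strand: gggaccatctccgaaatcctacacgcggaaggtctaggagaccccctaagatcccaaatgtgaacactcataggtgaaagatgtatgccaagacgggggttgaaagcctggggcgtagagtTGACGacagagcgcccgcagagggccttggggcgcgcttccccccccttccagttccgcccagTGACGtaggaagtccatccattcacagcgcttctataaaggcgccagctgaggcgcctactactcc
Junb, chr8:84978749-84978998, minus strand: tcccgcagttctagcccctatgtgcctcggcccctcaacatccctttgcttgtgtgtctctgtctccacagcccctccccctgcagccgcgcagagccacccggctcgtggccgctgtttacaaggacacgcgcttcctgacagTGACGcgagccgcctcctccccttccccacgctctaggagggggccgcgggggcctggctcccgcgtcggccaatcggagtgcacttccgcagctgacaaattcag
Each of these 4 windows held the letters on at least 1 strand. Nr4a1 held 4 copies, beginning 233, 213, 69 and 40 bases before the start. Egr4 held 2, at 177 and 109 bases, Fos held 2, at 129 and 66 bases, and Junb held 1, at 106 bases. Among 17 immediate early genes with a window, tested here, 11 held the letters (64.7%). Of 32851 windows of the same length in the RefSeq table, 17.8% held them, as did 33% of the 6276 tested genes with a window and 36.1% of the 313 lower genes with a window. A match of letters is a description and no sign of binding in these mice, and the motif was chosen after the values of these genes were seen.

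Nr4a1 had 7.28, 8.98 and 12.5 FPKM as its lowest, median and highest values in 18M-MR, and 15.2, 16.5 and 22.5 FPKM in 5M-MR. The groups did not overlap, and the difference was -0.83 ± 0.14 (SE; limma adjusted p = 0.0126). It was -0.85 without 18M-MR 1, 2 and 7 (adjusted p = 0.0435), where Nr4a1 was 1 of the 9 loci still called. Egr4 had 7.84, 9.41 and 13.7 FPKM in 18M-MR and 14.3, 19.9 and 23.5 FPKM in 5M-MR. These groups did not overlap either, with a difference of -0.87 ± 0.15 (limma adjusted p = 0.0126) that stayed at -0.86 without those 3 libraries but no longer passed (adjusted p = 0.0924). Egr1 ran from 19.5 to 42.5 FPKM in 18M-MR around a median of 21.6, and from 36.9 to 57.1 FPKM in 5M-MR around 41.8. Only 18M-MR 2 of the older mice reached into the range of the younger, and the difference was -0.81 ± 0.17 (limma adjusted p = 0.0258), or -0.97 without 18M-MR 1, 2 and 7 (adjusted p = 0.024).

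Fos, whose protein forms the AP-1 factor with Jun proteins, had 2.05, 2.54 and 4.90 FPKM in 18M-MR and 4.75, 7.37 and 8.48 FPKM in 5M-MR, a difference of -0.95 ± 0.19 (limma adjusted p = 0.0236). The ranges overlapped at a single older library, and the difference was -0.98 without 18M-MR 1, 2 and 7 (adjusted p = 0.112). Junb differed by -0.73 ± 0.16 (limma adjusted p = 0.0277), or -0.68 without those 3 libraries (adjusted p = 0.171), between a median of 24 FPKM in 18M-MR and 44 FPKM in 5M-MR. Arc, named outside the rule for naming genes, had medians of 22.3 and 49.0 FPKM in 18M-MR and 5M-MR and a difference of -0.95 ± 0.26 (limma adjusted p = 0.0444). Leaving out a single library ended the call of Egr1 in 5 of 14 fits (adjusted p up to 0.0592, without 18M-MR 6), of Fos in 4 (up to 0.0541, without 5M-MR 10), of Junb in 5 (up to 0.0645, without 5M-MR 10) and of Arc in 12 (up to 0.0852, without 18M-MR 6). Of 3 more genes named outside that rule, Gadd45b, a stress and activity gene that promotes DNA demethylation, missed the threshold at -0.52 (adjusted p = 0.0541), and Nr4a3, a relative of Nr4a1, was at -1.23 (adjusted p = 0.0916). Homer1, a synaptic scaffold whose short form is induced by activity, was at 0.20 (adjusted p = 0.53), the sole difference of the list above 0.

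On the control diet Fos fell as well, the sole call of the list there. It had 2.73, 3.55 and 4.17 FPKM in 18M-CD and 4.94, 8.65 and 10.7 FPKM in 5M-CD, a difference of -0.98 (limma adjusted p = 0.0198). Nr4a1 was at -0.77 (adjusted p = 0.217) and Egr4 at -0.51 (adjusted p = 0.311) between these groups, and the list had a median of -0.55 there, against -0.10 for all loci. Egr4 ran from 3.72 to 21.8 FPKM in 18M-CD and from 13.3 to 16.5 FPKM in 5M-CD, so that the highest older library was above every younger one. The test of the difference between the diets, the interaction of age with diet, gave 0.03 for Fos, -0.06 for Nr4a1 and -0.35 for Egr4 (adjusted p = 0.988, 0.987 and 0.812). At 15 months on methionine restriction, Nr4a1 had a median of 7.05 FPKM, Egr4 8.21 FPKM and Fos 2.74 FPKM. All 8 libraries of 15M-MR were on lane 4, so that age and lane cannot be told apart there.

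**Figure D3:**
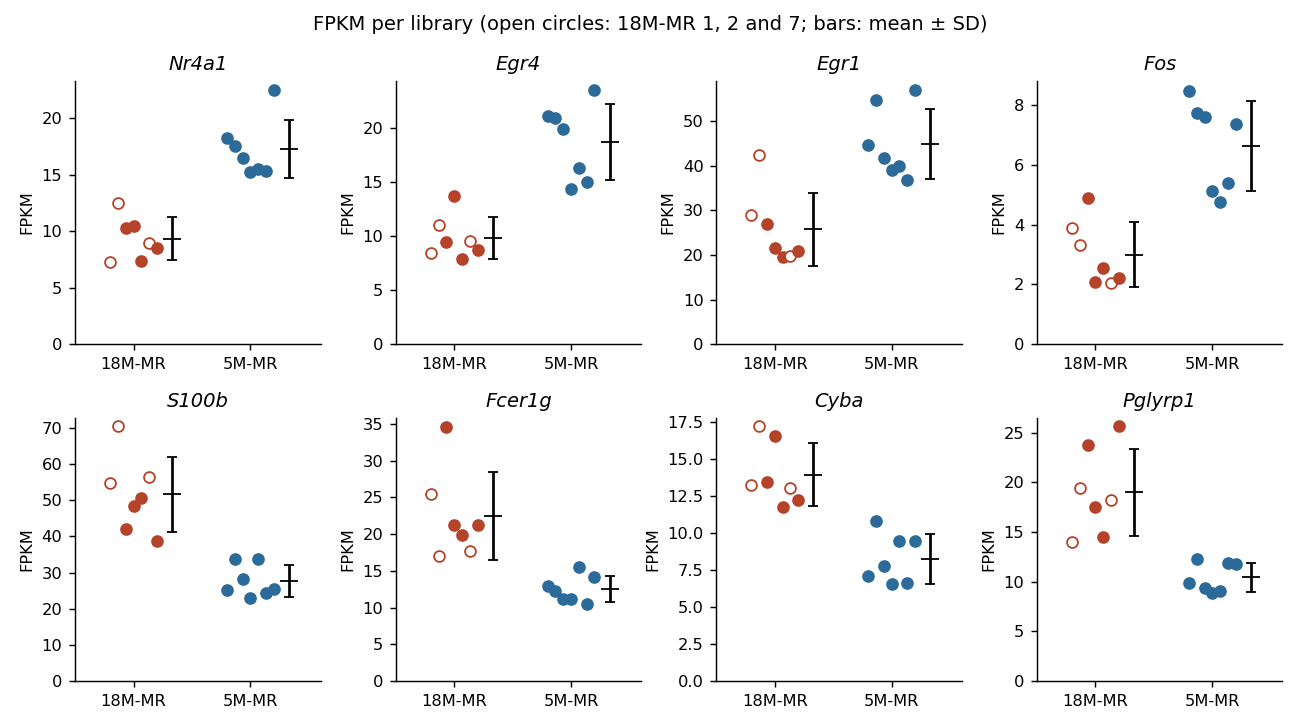
FPKM (vertical axes) of 4 immediate early genes and of S100b, Fcer1g, Cyba and Pglyrp1 in each library of 18M-MR (red, left, with 18M-MR 1, 2 and 7 as open circles) and 5M-MR (blue, right), with the mean and SD in black. The immediate early genes are lower in 18M-MR, with Nr4a1 between 7.28 and 12.5 FPKM, and the other 4 are higher, with S100b between 38.7 and 70.5 FPKM.

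Glucocorticoid-induced and clock genes were also lower in part. Of 7 glucocorticoid-induced genes tested, 3 fell, namely Per1, Ddit4 and Sgk1, and none rose (42.9% lower, beside 4.78% of all loci). Per1, a repressor in the circadian clock that is also induced by glucocorticoids, had a median of 6.30 FPKM in 18M-MR and 11.3 FPKM in 5M-MR (difference -0.88 ± 0.20, limma adjusted p = 0.0324). Ddit4, an inhibitor of mTOR complex 1, had medians of 4.26 and 9.89 FPKM in these groups (-0.86 ± 0.21, adjusted p = 0.035). Sgk1, a kinase that regulates ion transport, ran from 10.6 to 24.9 FPKM in 18M-MR and from 19.6 to 45.6 FPKM in 5M-MR (-0.81 ± 0.21, adjusted p = 0.0386), and it was also lower in 18M-CD than in 5M-CD (-1.38, adjusted p = 0.0207). The 7 genes had a median of -0.38, and -0.27 without 18M-MR 1, 2 and 7. After median scaling Per1, Ddit4 and Sgk1 did not pass (limma adjusted p = 0.0573, 0.0782 and 0.114).

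Among 14 clock genes, Cry2 and Per1 fell and Clock rose (14.3% lower and 7.14% higher, beside 4.78% and 0.617% of all loci). Cry2, a repressor of the clock, had 6.28, 9.17 and 11.6 FPKM in 18M-MR and 13.7, 15.0 and 17.1 FPKM in 5M-MR. The groups did not overlap, and the difference of -0.74 ± 0.14 (limma adjusted p = 0.0204) ended as a call only in the fit without 5M-MR 6 (adjusted p = 0.0513) among the 14 that each left out 1 library. Clock, an activator of the same loop, had a median of 3.58 FPKM in 18M-MR and 0.541 FPKM in 5M-MR (1.36 ± 0.37, adjusted p = 0.0449). Library 5M-MR 2 was far above its group at 4.94 FPKM. On the control diet Clock ran from 0.163 to 6.38 FPKM in 5M-CD and from 0.456 to 9.54 FPKM in 18M-CD. Tef and Hlf, clock-driven factors, were at -0.59 and -0.48 (adjusted p = 0.0532 and 0.0547). The time of day of tissue collection is not given in the sources used here. Single left-out libraries ended the call of Per1 in 8 fits, of Ddit4, Sgk1 and Clock in 11 each, with adjusted p up to 0.0922 (Clock, without 18M-MR 1), and none of the 5 genes passed without 18M-MR 1, 2 and 7.

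Transcripts of synaptic release had a median difference of -0.55 over 24 genes, against -0.23 for all loci, and 3 fell and none rose (12.5% lower, beside 4.78% of all loci). Bsn, a scaffold of the presynaptic active zone, had 6.53, 11.8 and 16.9 FPKM in 18M-MR and 15.5, 19.9 and 24.4 FPKM in 5M-MR (-0.77 ± 0.19, limma adjusted p = 0.0359). Syt1, the calcium sensor of vesicle fusion, had medians of 111 and 199 FPKM in 18M-MR and 5M-MR (-0.69 ± 0.18, adjusted p = 0.0394), and Vamp2, a vesicle SNARE protein, 322 and 485 FPKM (-0.69 ± 0.19, adjusted p = 0.0449). Nsf, which takes used SNARE complexes apart, was lower in every 18M-MR library than in any of 5M-MR, at -0.77, with an adjusted p just above 0.05 that did not pass. Slc17a7, the vesicular glutamate transporter of hippocampal excitatory neurons and named outside the rule, was at -0.63 (adjusted p = 0.0669). The list median was -0.45 without 18M-MR 1, 2 and 7, and -0.33 after median scaling. By library, the list was lowest in 18M-MR 2 and 18M-MR 6, and the median of the list ran from -0.98 to 0.09 in 18M-MR and from -0.08 to 0.18 in 5M-MR. In whole tissue, fewer cells of a type and less RNA per cell cannot be told apart.

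On the receiving side, 3 of 26 genes of glutamate receptors and their partners fell and 1 rose (11.5% lower and 3.85% higher, beside 4.78% and 0.617% of all loci). Gria1, an AMPA receptor subunit, had medians of 17.9 FPKM in 18M-MR and 25.3 FPKM in 5M-MR (-0.68 ± 0.19, limma adjusted p = 0.0449), Camk2a, the kinase of synaptic potentiation, 239 and 403 FPKM (-0.83 ± 0.21, adjusted p = 0.0377), and Homer3, a postsynaptic scaffold, 6.07 and 11.5 FPKM (-0.79 ± 0.18, adjusted p = 0.0324). Cacng2, the AMPA receptor partner stargazin, rose to a median of 12.8 FPKM in 18M-MR, against 6.90 FPKM in 5M-MR (0.74 ± 0.17, adjusted p = 0.0303). Among 17 genes of GABA signalling, of which 2 fell (11.8%) and none rose, Gabbr2, a GABA-B receptor subunit, fell by 0.59 (adjusted p = 0.043). Among 28 voltage-gated channels, of which 2 fell (7.14%, near the 4.78% of all loci) and none rose, Cacna1e, a calcium channel, fell by 0.92 (adjusted p = 0.0324). The medians of these 3 lists were -0.24, -0.34 and -0.37, against -0.23 for all loci, and -0.02, -0.12 and -0.15 after median scaling. No call of these synaptic, receptor and channel genes passed without 18M-MR 1, 2 and 7. Leaving out any one of 18M-MR 1, 18M-MR 6 and 5M-MR 2, 5, 6 and 8 ended each call. The adjusted p reached 0.094 (Gria1, without 18M-MR 6). After median scaling the lower calls named here all missed the threshold, with limma adjusted p from 0.0512 (Cacna1e) to 0.109 (Gabbr2). Cacng2, which rose, passed (adjusted p = 0.037).

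Of 15 markers of CA3 and CA2 pyramidal cells 2 fell (13.3%, beside 4.78% of all loci) and 13 were below 0 (beside 71.9% of all loci), with a median of -0.51 (-0.31 without 18M-MR 1, 2 and 7), and those that fell were Cacng5 and Rgs14. Cacng5, a partner of AMPA receptors, was listed at 0 in 18M-MR 1, 2 and 6 and reached 1.76 FPKM at most in 18M-MR. It stood between 1.65 and 5.11 FPKM in 5M-MR (limma adjusted p = 0.0294). On the control diet Cacng5 ran from 0 to 4.23 FPKM in 5M-CD (median 0.0345) and from 0 to 2.84 FPKM in 18M-CD (median 0.0337). Rgs14, a signalling scaffold concentrated in CA2, ran from 8.23 to 29.4 FPKM in 18M-MR and from 19.5 to 38.3 FPKM in 5M-MR (-0.79 ± 0.22, adjusted p = 0.0484). Of 14 markers of dentate granule cells 2 fell (14.3%). Sema5a, a guidance molecule that limits their synapses, fell by 0.95 (adjusted p = 0.0334) and Npnt, a matrix protein, by 0.81 (adjusted p = 0.0349), and the list median was -0.32, but -0.06 without the 3 libraries. The 13 markers of CA1 had a median of -0.08 and none passed (3 at an unadjusted p under 0.05 in limma). Cacng5 and Rgs14 kept their calls in 7 and 3 of 14 fits without 1 library, and Sema5a and Npnt in 5 each. The adjusted p reached 0.0933 (Rgs14, without 18M-MR 1). After median scaling Cacng5, Rgs14, Sema5a and Npnt did not pass (limma adjusted p = 0.0521, 0.0992, 0.0658 and 0.0763). By library, the CA3 and CA2 list was lowest in 18M-MR 2, at -1.51, and next in 18M-MR 6, at -0.73, as the plot of lists by library shows.

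**Figure D4:**
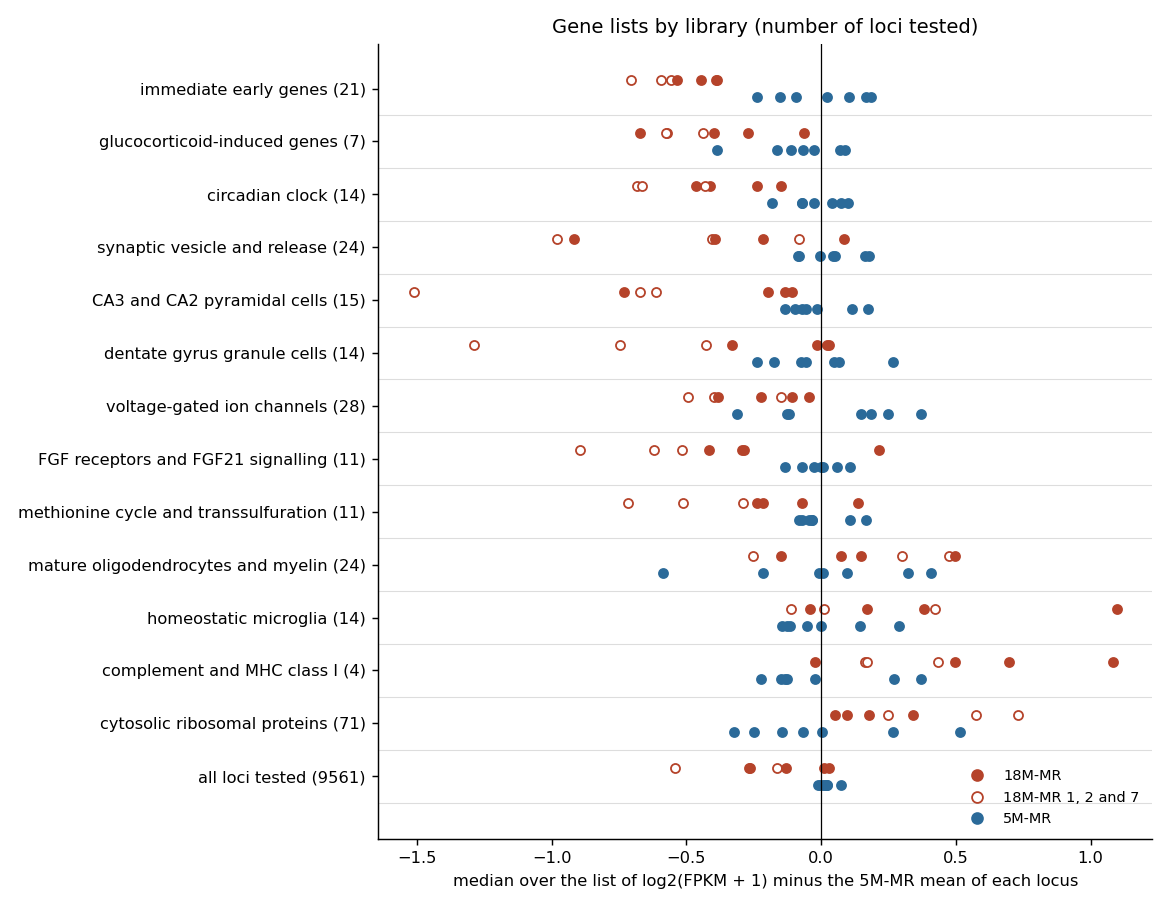
Median over each gene list (rows, with the number of loci tested) of log2(FPKM + 1) after subtracting the 5M-MR mean of each locus (horizontal axis), 1 point per library, 18M-MR in red above 5M-MR in blue, with 18M-MR 1, 2 and 7 as open circles. Immediate early genes do not overlap on this unscaled measure, from -0.70 to -0.39 in 18M-MR and from -0.24 to 0.18 in 5M-MR. All loci run from -0.54 to 0.03 in 18M-MR, and that shift is not taken out. In 18M-MR 2 the immediate early genes stand at -0.56 and all loci at -0.54, and in 5M-MR 6 at -0.24 and 0.02, so the separation is not free of the shift.

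In the other direction, S100b was the clearest single gene. S100b, a calcium-binding protein made by astrocytes and some oligodendrocytes and encoded at chr10:76253853-76261159 (GENCODE M21, GRCm38), had 38.7, 50.7 and 70.5 FPKM in 18M-MR and 22.9, 25.6 and 33.8 FPKM in 5M-MR. Every older library was above every younger one, the difference was 0.87 ± 0.14 (limma adjusted p = 0.0126), and the call held in all 14 fits without 1 library. It was 0.69 without 18M-MR 1, 2 and 7 (adjusted p = 0.0917) and 1.09 after median scaling (adjusted p = 0.0175). Its relatives were looked at after these values were seen. Of 7 genes of the S100 family tested on a locus of their own 4 rose, S100b among them, while 0.617% of all loci rose. All 7 were above 0, as were 2683 of 9561 loci. The median of the 7 was 0.55, against -0.23 for all loci. Without 18M-MR 1, 2 and 7, S100a16 was at -0.03. S100a11 rose by 0.89 ± 0.19 (adjusted p = 0.0258) to a median of 11.3 FPKM in 18M-MR, against 5.21 FPKM in 5M-MR, S100a10, which carries membrane proteins to the cell surface, by 0.55 (adjusted p = 0.0382), and S100a6 by 0.61 (adjusted p = 0.0443). S100a1 stood at 0.44 (adjusted p = 0.0505), S100a13 at 0.40 (adjusted p = 0.0906) and S100a16 at 0.06 (adjusted p = 0.814). S100a11, S100a10 and S100a6 passed in 11, 5 and 4 of the 14 fits, with adjusted p up to 0.0914 (S100a6, without 18M-MR 6).

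Astrocyte markers did not rise as a group. Of 20 tested, S100b rose and Slc4a4, a bicarbonate transporter, fell by 0.93 (limma adjusted p = 0.0408), 5% each way. Over all loci 0.617% rose and 4.78% fell. Differences below 0 numbered 15 of 20, beside 71.9% of all loci. The list median was -0.18, against -0.23 for all loci, and 0.04 after median scaling (all loci -0.01). Slc4a4 passed in 2 of the 14 fits without 1 library (adjusted p up to 0.0852, without 5M-MR 6). Summed over the list, their FPKM ran from 1534 to 2736 in 18M-MR and from 2081 to 2677 in 5M-MR. Gfap, the filament protein that marks reactive astrocytes, had a median of 63.5 FPKM in 18M-MR and 55.2 FPKM in 5M-MR (0.05, adjusted p = 0.84), and Vim, another filament gene, 16.8 and 14.2 FPKM (0.28, adjusted p = 0.384). The difference for Gfap was 0.61 on the control diet (adjusted p = 0.116), and the interaction was -0.56 (unadjusted p = 0.0133, adjusted p = 0.772), which did not pass.

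Of 14 markers of homeostatic microglia 1 rose (7.14%) and none fell, and of 18 genes of disease-associated microglia 1 rose and 1 fell (5.56% each), beside 0.617% higher and 4.78% lower of all loci. Tyrobp, the partner chain of TREM2, was at 0.51 (adjusted p = 0.114) and B2m, of MHC class I, at 0.38 (adjusted p = 0.185), and neither passed. Fcer1g, Cyba and Pglyrp1 were named for their small p values. Fcer1g, the signalling chain of Fc receptors, encoded at chr1:171229572-171234365, had 17, 21.2 and 34.7 FPKM in 18M-MR and 10.4, 12.3 and 15.5 FPKM in 5M-MR. The groups did not overlap, and Fcer1g rose by 0.77 ± 0.15 (limma adjusted p = 0.0219). Cyba, a subunit of the phagocyte oxidase, had 11.7, 13.2 and 17.3 FPKM in 18M-MR and 6.57, 7.74 and 10.8 FPKM in 5M-MR, again with no overlap (0.70 ± 0.14, adjusted p = 0.0232). Pglyrp1, a peptidoglycan recognition protein, rose by 0.79 ± 0.15 (adjusted p = 0.0183) and Cd52, a surface glycoprotein of leukocytes, by 0.83 ± 0.18 (adjusted p = 0.0294), also without overlap. Fcer1g and Pglyrp1 lost the call only without 5M-MR 6 (adjusted p = 0.0549 and 0.0503), Cyba without 5M-MR 2 or 6 (up to 0.0577), and Cd52 in 8 of the 14 fits (up to 0.0598). Without 18M-MR 1, 2 and 7, Fcer1g and Pglyrp1 were each at 0.88 (adjusted p = 0.0687), and Cyba and Cd52 at 0.66 and 0.86 (adjusted p = 0.137 each).

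The homeostatic marker that rose was Olfml3, a secreted matrix protein, with 4.93, 6.76 and 12.1 FPKM in 18M-MR and 3.12, 4.14 and 4.90 FPKM in 5M-MR. It rose by 0.65 ± 0.17 (limma adjusted p = 0.0443), passed in 4 of the 14 fits without 1 library (adjusted p up to 0.0887, without 18M-MR 1), and rose as well in 18M-CD against 5M-CD (0.61, adjusted p = 0.0233). The complement genes C1qa, C1qb and C1qc, which tag synapses for removal, were at 0.47, 0.52 and 0.30 (adjusted p = 0.101, 0.0867 and 0.24), and C1qa and C1qb passed after median scaling (0.69 and 0.75, adjusted p = 0.0481 and 0.0437). A locus that holds C4a and C4b together, a pair of near-identical complement genes, rose by 0.80 (adjusted p = 0.0405), and a second locus of the same pair did not pass (0.72, adjusted p = 0.0861). The 14 markers had a median of 0.26 with 11 above 0, and their summed FPKM ran from 178 to 407 in 18M-MR and from 175 to 248 in 5M-MR. Their median was 0.37 without 18M-MR 1, 2 and 7.

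Of the disease-associated genes, Cd52 rose and Lpl fell. Lpl, a lipase that neurons also make, had 2.45, 3.13 and 5.61 FPKM in 18M-MR and 4.37, 7.51 and 16.6 FPKM in 5M-MR (-1.03 ± 0.25, limma adjusted p = 0.0349), and it passed in 5 of the 14 fits without 1 library (adjusted p up to 0.0746, without 18M-MR 6). In control-diet mice Lpl had medians of 9.13 FPKM in 18M-CD and 7.37 FPKM in 5M-CD (0.36), and the interaction was -1.39 (unadjusted p = 0.00366, adjusted p = 0.772).

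No myelin gene was shown to differ between these ages on the restricted diet. None of 24 passed the test in limma, 7 had an unadjusted p under 0.05 (6 higher, 1 lower), and their median was 0.13. Their summed FPKM ran from 894 to 2225 in 18M-MR and from 636 to 1543 in 5M-MR. Ppp1r14a, an oligodendrocyte phosphatase inhibitor, was at 0.90 (adjusted p = 0.0506), Mobp, a myelin basic protein of the central nervous system, at 0.74 (adjusted p = 0.0945), Mbp at 0.56 (adjusted p = 0.141) and Mag, the myelin-associated glycoprotein, at -0.47 (adjusted p = 0.115). On the control diet the same 24 genes had a median of 0.66, and Mag was at 0.76. The interaction of Mag was -1.23 (unadjusted p = 0.00219, adjusted p = 0.772), 6 of the 24 had an unadjusted interaction p under 0.05, and none passed, so a difference between the diets in myelin genes was not shown. Olig2, a factor of the whole lineage, was at 0.29 with an adjusted p of 0.217, and passed after median scaling (0.51, adjusted p = 0.047).

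Of 71 cytosolic ribosomal protein genes Rpl31 alone passed the test (1.41% higher, beside 0.617% of all loci), while 66 were above 0, with a median of 0.32 against -0.23 for all loci. By library the list overlapped between the groups. It was highest in 18M-MR 1 and 2, at 0.73 and 0.57, and between 0.05 and 0.34 in the other 5 of 18M-MR, while 5M-MR 4 and 7 stood at 0.52 and 0.27 and the other 5 of 5M-MR between -0.32 and 0.00. Rpl31 had 178, 197 and 345 FPKM in 18M-MR and 116, 135 and 191 FPKM in 5M-MR, groups that overlapped (0.65 ± 0.17, limma adjusted p = 0.0394), and the call was lost in 8 of the 14 fits without 1 library (adjusted p up to 0.0863, without 18M-MR 6). Rpl26, Rpl36a and Rps20 were at 0.55, 0.49 and 0.49 (adjusted p = 0.0505, 0.0553 and 0.0579). The list median was 0.18 without 18M-MR 1, 2 and 7, 0.54 after median scaling and 0.24 between 18M-CD and 5M-CD. Of 70 nuclear-encoded subunits of oxidative phosphorylation none passed in limma (18 at an unadjusted p under 0.05), and their median was 0.16. Ndufa2, of complex I, was at 0.61 (adjusted p = 0.0669), Cox6c, of complex IV, at 0.44 (adjusted p = 0.0799), and Sdha, the large catalytic subunit of complex II, at -0.55 (adjusted p = 0.0547).

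The difference also moved with transcript length, as values of the longest annotated transcript of 7980 loci show. Loci of 60 to 2504 nucleotides had a median difference of -0.05, with 1.20% lower and 1.05% higher. Loci of 2506 to 4218 nucleotides had a median of -0.29, with 5.04% lower and 0.263% higher, and loci of 4219 to 40378 nucleotides one of -0.36, with 8.42% lower and 0.338% higher. The 3 medians were 0.03, -0.15 and -0.24 without 18M-MR 1, 2 and 7, and -0.04, -0.15 and -0.16 between 18M-CD and 5M-CD. Ribosomal protein transcripts are short, and those of channels, active-zone scaffolds and chromatin enzymes are long. The part of length in the results of these lists was not tested.

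Pathways that the diet is known to act on were described next. Fgf21 and Klb, the FGF21 co-receptor, were not analysed here. Of 11 tested genes of FGF receptors and FGF21 signalling 3 fell and none rose (27.3% lower, beside 4.78% of all loci). The list median was close to the general shift, at -0.31 against -0.23 for all loci. It was -0.19 without 18M-MR 1, 2 and 7 (all loci -0.12) and -0.09 after median scaling (all loci -0.01). Fgfr1, the main receptor through which FGF21 signals with its co-receptor, had 4.08, 6.06 and 8.94 FPKM in 18M-MR and 8.80, 10.3 and 12 FPKM in 5M-MR. It fell by 0.62 ± 0.16 (limma adjusted p = 0.0394), and the difference was -0.42 without 18M-MR 1, 2 and 7 (adjusted p = 0.231) and -0.40 after median scaling (adjusted p = 0.0706). Frs2, the adaptor docked on FGF receptors, fell by 0.65 ± 0.15 (adjusted p = 0.031) and Sos1, an exchange factor that activates Ras, by 1.09 ± 0.24 (adjusted p = 0.0287). Fgfr2 and Fgfr3 were at 0.15 and -0.46 (adjusted p = 0.685 and 0.173). Between 18M-CD and 5M-CD Fgfr1 was at -0.03 (adjusted p = 0.951), and its interaction was -0.58 (unadjusted p = 0.0348, adjusted p = 0.772). Fgfr1, Frs2 and Sos1 passed in 3, 7 and 7 of the 14 fits without 1 library, with adjusted p up to 0.0863 (Fgfr1, without 18M-MR 6).

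None of 11 genes of the methionine cycle and transsulfuration on a locus of their own passed in limma, with 3 at an unadjusted p under 0.05 and a median of -0.22, close to that of all loci. Ahcy, which clears S-adenosylhomocysteine, had medians of 7.15 and 7.85 FPKM in 18M-MR and 5M-MR (-0.22, adjusted p = 0.32). Ahcyl2, its relative, was at -0.72 (adjusted p = 0.073), Gclc, of glutathione synthesis, at -0.50 (adjusted p = 0.0652), and Mat2b, a regulator of S-adenosylmethionine synthesis, at -0.31 (adjusted p = 0.195). Mat2a, the synthase of S-adenosylmethionine, stands on 2 loci, so its value is uncertain. On one of them it was lower in 18M-MR, at -1.01 ± 0.24 (adjusted p = 0.0326), and the locus that holds Mtr, methionine synthase, together with the predicted gene Gm10336 was at -0.85 ± 0.21 (adjusted p = 0.035). Each of these 2 loci passed in only 6 of the 14 fits without 1 library. Without 18M-MR 1, 2 and 7 they were at -0.79 and -0.67 and did not pass (limma adjusted p = 0.216 and 0.217).

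Of 15 targets of ATF4, the factor that answers a shortage of amino acids, Nupr1, a stress-induced chromatin protein, rose, and Slc7a1, a transporter of cationic amino acids, fell (6.67% each way, beside 0.617% higher and 4.78% lower of all loci). Nupr1 had 4.11, 5.30 and 15.3 FPKM in 18M-MR and 1.97, 3.44 and 4.34 FPKM in 5M-MR (0.82 ± 0.23, limma adjusted p = 0.0484). Slc7a1 had 1.63, 2.84 and 4.23 FPKM in 18M-MR and 4.01, 4.96 and 5.57 FPKM in 5M-MR (-0.66 ± 0.17, adjusted p = 0.0394). Asns, asparagine synthetase, was at -0.47 (adjusted p = 0.0789), and the median of the 15 was -0.22. In nutrient signalling, Foxo3, a factor held back by insulin, fell by 0.58 (adjusted p = 0.0449), the sole call among 18 genes (5.56% lower, near the 4.78% of all loci). Mtor was at -0.53 and Insr, the insulin receptor, at -1.24 (adjusted p = 0.0569 and 0.0563). Srebf2, the master factor of cholesterol synthesis, fell by 0.90 ± 0.19 (adjusted p = 0.027), or -0.87 without 18M-MR 1, 2 and 7 (adjusted p = 0.157). It was the sole call among 17 genes of that pathway (5.88% lower, near the 4.78% of all loci), whose median was -0.22. Single left-out libraries ended the call of Nupr1 in 12 fits, of Slc7a1 in 9, of Foxo3 in 11 and of Srebf2 in 5, with adjusted p up to 0.0908 (Foxo3, without 5M-MR 6).

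Of 29 chromatin regulators 3 fell (10.3%, beside 4.78% of all loci) and none rose. Ash1l, a histone methyltransferase, fell by 1.07 ± 0.23 (limma adjusted p = 0.0259), Ep300, a histone acetyltransferase and coactivator, by 0.71 ± 0.19 (adjusted p = 0.0441), and Kdm5b, a histone demethylase, by 0.84 ± 0.23 (adjusted p = 0.0474). Of 29 spliceosomal and RNA-binding genes 1 rose (3.45%, beside 0.617% of all loci) and 2 fell (6.90%, near the 4.78% of all loci). Luc7l3, a splicing factor, rose by 0.94 ± 0.22 (adjusted p = 0.0324). Sf3b2, of the U2 particle, and Hnrnpdl, a heterogeneous nuclear ribonucleoprotein, fell by 0.61 and 0.68 (adjusted p = 0.035 and 0.0449). Outside these lists, Snrnp48, of the minor spliceosome, rose without overlap to between 3.65 and 5.84 FPKM in 18M-MR, against 1.71 to 2.82 FPKM in 5M-MR (0.81 ± 0.16, adjusted p = 0.0236; 0.72 and 0.146 without 18M-MR 1, 2 and 7), and Thoc2, of the complex that exports messages from the nucleus, rose by 1.24 ± 0.25 (adjusted p = 0.0258). Hsp90aa1, a chaperone, rose by 0.76 ± 0.20 (adjusted p = 0.0429), the sole call among 23 chaperones (4.35% higher, beside 0.617% of all loci). Hspb1, a small heat shock protein, missed at 0.65 (adjusted p = 0.0504). None of 27 proteasome subunits, 25 lysosome and autophagy genes and 19 genes of the oxidative stress response passed in limma (4, 5 and 8 at an unadjusted p under 0.05), with medians of -0.16, -0.23 and -0.02. Rbm3, the cold-induced RNA-binding protein, was at -0.41 (adjusted p = 0.24). Leaving out single libraries ended the calls of Ash1l in 6 of 14 fits, of Ep300 in 11, of Kdm5b in 12, of Luc7l3 and Sf3b2 in 9 each, of Hnrnpdl in 11, of Snrnp48 in 3, of Thoc2 in 5 and of Hsp90aa1 in 10, with adjusted p up to 0.0962 (Kdm5b, without 5M-MR 6).

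The loci with the smallest p values outside the lists included several at which libraries were listed at 0. Iffo2, an intermediate filament family gene at chr4:139530548-139620382, had 0.00414, 0.129 and 0.770 FPKM in 18M-MR and 1.29, 3.57 and 3.83 FPKM in 5M-MR. The groups did not overlap, and the difference was -1.68 ± 0.26 (limma adjusted p = 0.0126) and -1.79 without 18M-MR 1, 2 and 7 (adjusted p = 0.0374). No 18M-MR library reached the 1 FPKM of the filter, so Iffo2 was tested only through 5M-MR, the group in which it was high. The gap between the groups and its p values are to be read with that limit. On the control diet, Iffo2 ran from 0.416 to 3.36 FPKM in 18M-CD and from 0.0781 to 2.85 FPKM in 5M-CD, and the interaction was -1.76 (unadjusted p = 0.000243, adjusted p = 0.465). Me2, the mitochondrial malic enzyme, was listed at 0 in 4 of 7 libraries of 18M-MR, where its highest value was 1.3 FPKM, and stood between 2.35 and 2.92 FPKM in 5M-MR (adjusted p = 0.0126, and 0.0119 without the 3 libraries). It was also listed at 0 in 3 of 8 libraries of 18M-CD and in 1 of 6 of 5M-CD.

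Nol11, a factor of ribosomal RNA processing, was listed at 0 in all 7 libraries of 18M-MR and in 1 of 7 of 5M-MR, where the other 6 were between 4.39 and 5.95 FPKM (limma adjusted p = 0.0126). Like Iffo2, Nol11 met the filter only through 5M-MR, where it was high. It was listed at 0 in 6 of 8 libraries of 18M-CD and 1 of 6 of 5M-CD. Ppp4r4, a regulatory subunit of protein phosphatase 4, was listed at 0 in 6 of 7 libraries of 18M-MR and at 6.84 FPKM in 18M-MR 4, against 4.01 to 8.79 FPKM in 5M-MR (adjusted p = 0.0141). Such loci change between absent and several FPKM from library to library within groups too, as Rab3d, a vesicle GTPase, did at 3.86 FPKM in 18M-MR 5 and at most 0.103 FPKM in the other 6 (adjusted p = 0.0183). Among the loci that passed, 49 of 457 lower and 1 of 59 higher were listed at 0 in at least 1 of the 14 libraries, beside 1031 of 9561 tested (10.8%). A table of assembled loci can list a gene at 0 where its reads went to another locus, so no fold change is given for Me2, Nol11, Ppp4r4 and Rab3d.

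Spcs2, a subunit of the signal peptidase, behaved alike in the other direction, with 19.7, 22.3 and 28.3 FPKM in 18M-MR and 3.96, 4.27 and 26.7 FPKM in 5M-MR, where only 5M-MR 4 was high (1.83 ± 0.31, limma adjusted p = 0.0126). In 18M-CD it ran from 2.31 to 27.2 FPKM and in 5M-CD from 3.64 to 24.3 FPKM. Kcnj4, an inwardly rectifying potassium channel, had medians of 12.4 FPKM in 18M-MR and 0.320 FPKM in 5M-MR (2.10 ± 0.50, adjusted p = 0.034), yet reached 18.2 FPKM in 5M-CD. Tk2, the mitochondrial thymidine kinase, rose by 1.27 ± 0.31 (adjusted p = 0.035) and Nol7, a nucleolar protein, by 0.70 ± 0.17 (adjusted p = 0.0334). Kcnj4, Tk2 and Nol7 passed in 7, 5 and 5 of the 14 fits without 1 library, with adjusted p up to 0.0757 (Nol7, without 18M-MR 6).

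Among the other loci with the smallest p values or the largest differences, Ssx2ip, a centrosomal adhesion protein, had 8.63, 13.2 and 15.7 FPKM in 18M-MR and 20.4, 21.5 and 28.8 FPKM in 5M-MR, without overlap (-0.80 ± 0.14, limma adjusted p = 0.0142). Prickle2, a postsynaptic protein of planar cell polarity, had 8.53, 10.5 and 15.6 FPKM in 18M-MR and 17.9, 21.8 and 25 FPKM in 5M-MR, also without overlap (-0.80 ± 0.14, adjusted p = 0.0183), and lost the call only without 5M-MR 6 (adjusted p = 0.0503). Dirc2, a lysosomal membrane transporter, fell by 1.5 ± 0.24 (adjusted p = 0.0126), with at most 6.19 FPKM in 18M-MR and at least 7.37 FPKM in 5M-MR. Phospho1, a phosphatase of phosphocholine, fell by 1.46 ± 0.27 (adjusted p = 0.0183). Epha4, a receptor of ephrins that shapes dendritic spines, had 1.71, 3.52 and 16.2 FPKM in 18M-MR and 17.7, 21.5 and 27.9 FPKM in 5M-MR (-1.84 ± 0.38, adjusted p = 0.0258), and Clstn2, a postsynaptic calsyntenin, 0.0338, 1.77 and 8.22 FPKM in 18M-MR and 9.43, 11.8 and 18.6 FPKM in 5M-MR (-2.05 ± 0.44, adjusted p = 0.027). Neither pair of groups overlapped, though 18M-MR ran over a wide range in both genes. Phospho1 lost the call without 5M-MR 6 (adjusted p = 0.0503), Epha4 without 18M-MR 6 or 5M-MR 2, 6 or 10 (up to 0.0579), and Clstn2 in 6 of 14 fits (up to 0.0612).

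No locus was shown to differ with age in an unlike way on the 2 diets. Between 18M-CD and 5M-CD, which share no library with the comparison above, 6 of the same 9561 loci were higher and 7 lower, and 3 loci were called on both diets. Of the 516 loci called under methionine restriction, 466 differed in the same direction on the control diet (54 of 59 higher, with a median of 0.34 there, and 412 of 457 lower, with a median of -0.28), beside 64.3% of all loci below 0 on that diet. The interaction of age with diet passed at 0 loci in limma, with 605 at an unadjusted p under 0.05 and no other tool run. The smallest interaction p values were those of Mef2c, a neuronal transcription factor (2.21, adjusted p = 0.365), Smad4, the shared mediator of TGF-beta signals (-2.05, adjusted p = 0.365), Iffo2 (-1.76), Rab3d (adjusted p = 0.486) and Syt12, a synaptotagmin (-1.40, adjusted p = 0.498). Mef2c had medians of 7.42 FPKM in 18M-MR and 3.70 FPKM in 5M-MR (0.99, adjusted p = 0.0861), while the control diet gave -1.22. Of the control-diet libraries, 7 of 18M-CD were on lane 2 and 5 of 5M-CD on lane 1, so the lanes differ there as well.

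**Figure D5:**
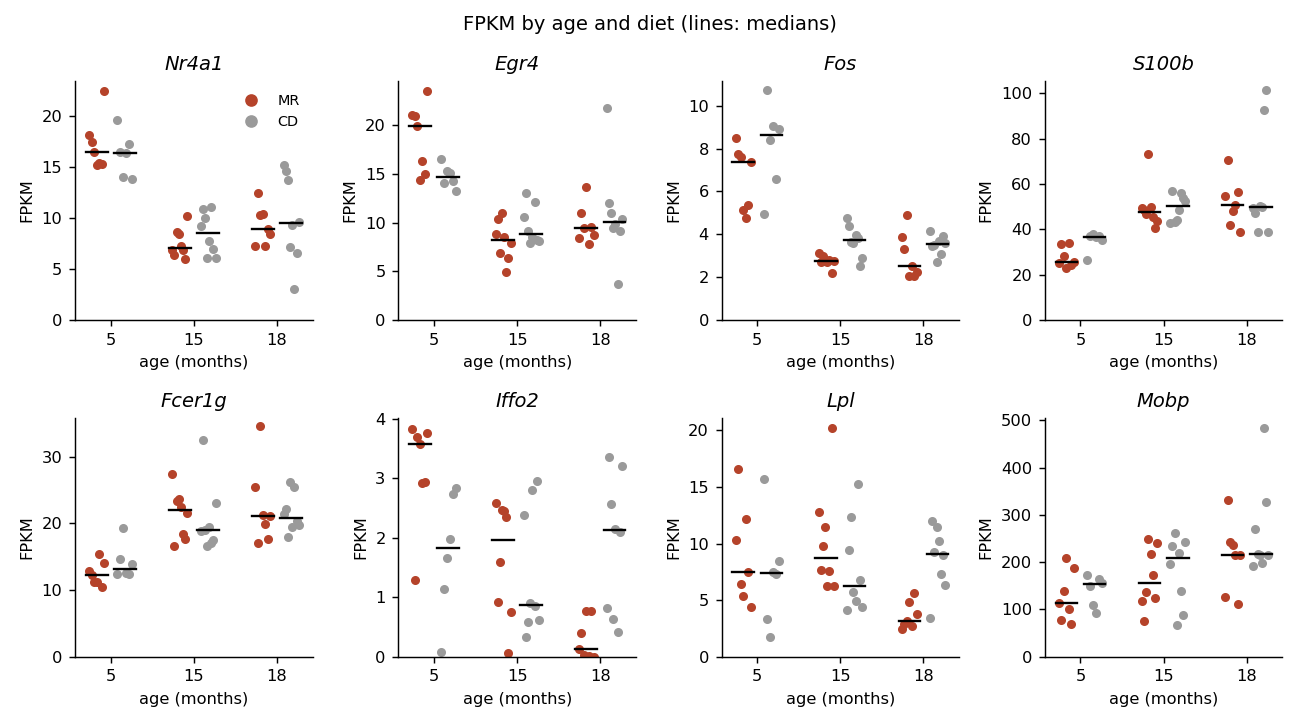
FPKM (vertical axes) at 5, 15 and 18 months (horizontal axes) under methionine restriction (red) and the control diet (grey) for 8 genes, 1 point per library with the median as a line. Fos is lower at 18 than at 5 months on both diets, with medians of 2.54 FPKM in 18M-MR and 7.37 FPKM in 5M-MR, while Lpl has medians of 3.13 FPKM in 18M-MR and 9.13 FPKM in 18M-CD.

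Markers of other cells and of neighbouring tissue were checked beside these results. None of 7 choroid plexus, 6 ependymal, 7 endothelial, 4 pericyte, 18 interneuron, 12 neocortical, 5 thalamic and 6 striatal markers passed in limma, with 0, 2, 1, 0, 5, 2, 2 and 0 of them at an unadjusted p under 0.05. Of 7 markers of meninges and fibroblasts 1 rose (14.3%, beside 0.617% of all loci). This was Mgp, matrix Gla protein, at 0.57 ± 0.16 (adjusted p = 0.0484). Mgp passed in 2 of the 14 fits without 1 library (adjusted p up to 0.0979, without 18M-MR 6). The summed FPKM of the 7 ran from 218 to 604 in 18M-MR and from 251 to 592 in 5M-MR. The hippocampal markers were present in every group, with summed FPKM of the CA1 markers from 107 to 234 in 18M-MR and from 169 to 245 in 5M-MR, and of the dentate markers from 57.7 to 142 in 18M-MR and from 115 to 161 in 5M-MR. Of 12 genes of adult neurogenesis none passed (3 at an unadjusted p under 0.05), with Stmn1, a microtubule regulator of young neurons, at 0.55 and Neurod1, a factor of new granule cells, at -0.47 (adjusted p = 0.083 and 0.139).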

How the data were processed

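Total RNA extracted with phenol and chloroform was made into libraries by the BGI-500 protocol, per the labels' protocols. Per the submitters' processing notes, Trimmomatic 0.38, HISAT2 and StringTie 1.3.4d were used on GRCm38.p6. The authors deposited FPKM values of assembled loci in 1 table, and no annotation is named for it. These values hold no read counts, so sequencing depth cannot be had from them and intervals for counting error are left out. The members, gene lists and tests were chosen with earlier results of these data known.

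Here limma 3.58.1 in R 4.3.3 was run on log2(FPKM + 1) of the 14 libraries, with a mean per group and an intensity trend, and p values were adjusted by Benjamini-Hochberg over 9561 loci. The interaction was fitted on 28 libraries. The scale understates changes of low genes. The fit was tested on simulated data with independent noise at each locus. Those data held no shift of whole libraries, no lanes and no loci that switch to 0, so that test does not bear on these features of the real libraries. List members are loci with a single symbol standing on 1 locus, and positions and lengths are from GENCODE M21. The lists (46) were described by counts and medians, with no test. Genes named are the 15 higher and 15 lower with the smallest p, the 8 with the largest difference each way among groups that do not overlap, up to 5 per list and any needed as an example, 12 fixed genes and the 5 smallest interaction p values, from which examples were taken. Some members counted in the lists are not reported here by name. Alternatives were a pseudocount of 0.1, no filter, 5 FPKM, all loci, quantile and median scaling, all 44 libraries, array weights, lane, a replicate block, the share without a symbol as covariate, and left-out libraries. Python 3.11.15 with pandas 2.3.3 and matplotlib 3.10.9 made lists and figures.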

Additional observations from a re-analysis of the deposited data

Results flagged for a closer look

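A library was singled out where its gap to the nearest other library of its group, divided by the range of the group of 7, was above Dixon's critical value. This held in 16 of 250 groups checked, and chance gives about 1 in 20. In 18M-MR, Npnt was at 0.802 FPKM in library 1 (the others from 1.69 to 2.62), S100a6 at 8.36 in library 4 (12.5 to 16.2), Me2 at 1.3 in library 2 (0 to 0.433), Ppp4r4 at 6.84 in library 4 (0 in the others), Rab3d at 3.86 in library 5 (0 to 0.103) and Kcnj4 at 0.440 in library 6 (5.34 to 14.1). In 5M-MR, Nr4a3 was at 1.06 FPKM in library 8 (8.57 to 13.4), Clock at 4.94 in library 2 (0.123 to 0.825), Vim at 19 in library 6 (13.1 to 15), Fgfr3 at 17.6 in library 8 (9.72 to 12.3) and Srebf2 at 12.4 in library 10 (17.9 to 21.5). In the same group, Iffo2 was at 1.29 FPKM in library 4 (2.92 to 3.83), Nol11 at 0 in library 10 (4.39 to 5.95), Spcs2 at 26.7 in library 4 (3.96 to 5.81), Camsap2 at 2.999 in library 7 (8.53 to 11.8) and Smad4 at 1.98 in library 5 (4.51 to 6.38).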

How the results depend on the processing

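Against 516 called loci, a pseudocount of 0.1 gave 317, median scaling 150, the fit of all 44 libraries 1840, array weights 1244, the share without a symbol as covariate 3, leaving out 18M-MR 1, 2 and 7 gave 9, and doing so with median scaling, an alternative chosen after seeing the data, 14. Leaving out single libraries gave 19 to 1766. No filter, a minimum of 5 FPKM, all loci and quantile normalization gave 532, 557, 501 and 511. With lane as a factor the age difference rested on lane 1, where 18M-MR 2 stood against 5M-MR 2 and 4, so 1 older library carried it. In that fit the median difference of all loci was -0.56, and 1 of the 516 changed sign. The replicate block gave 2 calls. Same-numbered libraries correlated between -0.272 and 0.135 in their deviations, and number 6 alone matched itself best, so the numbers were not taken to pair mice. The interaction gave 1, 8 and 2 loci with 44 libraries, array weights and lane, and 0 to 1 when libraries were left out. The difference in the share without a symbol was 1.19 percentage points without 18M-MR 1, 2 and 7 (exact permutation p = 0.0515, adjusted p = 0.0687). Those 3 libraries were left out for their high share, so this p value cannot show that the groups are alike in it. The cause of these changes was not tested. Of the 78 selected genes past the test, 1 kept the call with the replicate block and 0 with the share covariate. Without 18M-MR 1, 2 and 7 it was 4, and after median scaling 40. No sign changed in these settings or with lane as a factor. A sign below 0 in the lane fit is to be read against its median of -0.56 for all loci. Within lane 1, Nr4a1, Arc and Egr1 were at -0.48, -0.38 and -0.22, which is less far below 0 than that median. Egr4, Junb and Fos were further below it, at -0.87, -1.04 and -1.07. Of 39 list medians, 7 changed sign with lane as a factor, where 30 moved by more than the spread between libraries, 14 with the share covariate, 11 after median scaling, 9 after quantile normalization and 4 without 18M-MR 1, 2 and 7.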
